A study of Mus musculus with 4 samples.

Results

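Bone morphogenetic proteins (BMPs) are secreted signals of the developing skin, and the genes described here are 3 of their ligands, 5 antagonists or decoys and 2 receptors, measured in mouse skin cells a day after the microRNA miR-203 was switched on. The members were all probe sets annotated to exactly 1 gene with the symbol Bmp2, Bmp4, Bmp7, Bambi, Sostdc1, Nog, Grem1, Fst, Bmpr1a or Bmpr1b. There were 21 such probe sets, of 34945 on the array that carried a single gene, and each of the 10 genes had at least 1. The whole array named 18193 genes in this way. Of the 21, 5 stood for ligands, 7 for antagonists and decoys and 9 for receptors.

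Cells were sorted from skin of FVB pups at postnatal day 4, 24 h after an injection of doxycycline, and each sample was hybridised to 1 Affymetrix mouse array. The genotype of the 2 induced samples was K14-rtTA/TRE-miR-203/K14-H2BGFP, in which the keratin 14 promoter drives the doxycycline-dependent activator rtTA and rtTA drives the miR-203 transgene. The 2 controls, labelled WT, came from TRE-miR-203/K14-H2BGFP littermates, which carry the same miR-203 transgene without the activator. Both groups also carry a nuclear green fluorescent protein under the keratin 14 promoter, which is active in basal epidermal and outer root sheath keratinocytes. The activator and miR-203 were present together in 1 group only, so their effects cannot be told apart, and the sources used here do not give the sorting gate. The labels call the samples biological replicates without saying whether each came from 1 animal, so p-values measure the spread between these samples.

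BMP ligands bind a complex of type I and type II receptors, which phosphorylates Smad proteins that enter the nucleus and act on target genes. Secreted antagonists hold ligands away from the receptors, and a decoy receptor occupies the complex without signalling. In the hair follicle, BMP signalling through Bmpr1a is needed for the hair shaft and inner root sheath to differentiate, and its restraint by antagonists accompanies the start of follicle growth.

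The sequence of miR-203 is shown because it is the induced agent. The labels do not name an arm, so both mature arms of the mouse hairpin are given from RefSeq, at chr12:112130889-112130910 (5p) and chr12:112130927-112130948 (3p) on the plus strand of GRCm38.p6. Capitals mark the seed, bases 2 to 8.
mmu-miR-203-5p: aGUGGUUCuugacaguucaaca
mmu-miR-203-3p: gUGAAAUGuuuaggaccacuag
The arms have different seeds. No transcript of the member genes was searched for matches to either seed here.

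The RefSeq promoter table, which gives windows of 300 bases from 250 before to 50 after a start site, held 6 windows for 4 member genes (Bmp4, Grem1, Bmpr1a and Bmpr1b). The windows of Bmp4 and Bmpr1a are shown because these are the ligand and the receptor whose brightest probe set read higher on both induced arrays than on either control. They lie at chr14:46390620-46390919 (Bmp4) and chr14:34502497-34502796 (Bmpr1a), both on the minus strand of GRCm38.p6. Both strands were searched for GGCGCC, a GC-rich Smad motif that reads the same on either strand, and for GTCTG and its reverse complement CAGAC, the letters of the Smad-binding element. Matches are in capitals.
Bmp4: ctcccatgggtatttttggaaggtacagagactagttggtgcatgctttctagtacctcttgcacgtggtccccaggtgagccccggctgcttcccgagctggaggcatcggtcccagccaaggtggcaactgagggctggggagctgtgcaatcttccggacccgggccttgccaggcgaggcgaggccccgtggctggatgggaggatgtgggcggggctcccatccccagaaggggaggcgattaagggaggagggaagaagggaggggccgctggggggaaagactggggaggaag
Bmpr1a: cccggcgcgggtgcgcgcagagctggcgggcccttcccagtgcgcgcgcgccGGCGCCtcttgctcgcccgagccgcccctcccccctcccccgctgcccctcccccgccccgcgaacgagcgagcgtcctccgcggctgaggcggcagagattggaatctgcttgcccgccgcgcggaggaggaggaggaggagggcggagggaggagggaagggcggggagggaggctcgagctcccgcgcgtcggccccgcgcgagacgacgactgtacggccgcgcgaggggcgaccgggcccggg
The Bmpr1a window, with a GC content of 79.3%, held 1 match to the GC-rich motif. The Bmp4 window, with 64.0%, held no match to either motif. Of the windows not shown, that of Grem1 also held 1 match to the GC-rich motif, with 2 to the Smad-binding letters. Some windows of Bmpr1b held the Smad-binding letters too. Over all 32851 windows of that length, 11.9% held the GC-rich motif and 49.6% the Smad-binding letters on either strand. A match is a run of letters in this window and not a measured binding site.

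The deposited values are on a log2 scale on which 1 unit is a doubling. Probe sets were kept for testing when their mean over the 4 arrays reached 4.17, the 40th percentile, which left 27022. Of the 21 member probe sets 16 were kept, standing for 8 genes, and the single probe sets of Nog and Grem1 were below the filter. The kept member probe sets lay between 5.15 and 11.2 on every array, so none was kept only through the group in which it was higher. Pearson's r over the kept probe sets was 0.995 between controls, 0.994 between induced arrays and 0.991 to 0.993 between groups. Induced replicate 1 stood apart in sex-linked transcripts, with Xist at 5.86 against 10.6 to 11.2 on the other arrays and the Y-linked Eif2s3y at 9.38 against 2.52 to 2.82. Differences of several member genes are therefore also given without that array. Differences of all other genes are given with all 4 arrays only. The samples are labelled epidermal, and all 6 basal and all 6 suprabasal keratinocyte markers were kept, whereas 4 of 8 dermal fibroblast, 5 of 8 dermal papilla and 4 of 6 endothelial markers were below the filter. All 8 melanocyte and all 6 immune cell markers were kept as well, so the samples also held transcripts of other cell types.

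Among the 10 genes the clearest differences lay in an antagonist and in the decoy receptor, and they ran in opposite directions. Sostdc1, a secreted antagonist, was 1.78-fold lower in the induced arrays, and Bambi was 1.89-fold higher. Of the ligands, Bmp4 was 1.42-fold higher on average, unevenly between the induced arrays, while Bmp2 and Bmp7 overlapped between groups. The receptor Bmpr1a was higher by at most 1.28-fold in 4 of its 5 kept probe sets, without overlap between groups, as were 20.9% of all kept probe sets. None of the 16 kept member probe sets passed the test over all probe sets (limma, Benjamini-Hochberg adjusted p under 0.05), with adjusted p-values from 0.173 to 0.988. In limma 0 of the 27022 probe sets did (0.0%), and 2728 had an unadjusted p under 0.05. With limma's prior for the variance trended on the mean level and made robust, 126 probe sets were called, the 2 probe sets of Sostdc1 among them.

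**Figure D1:**
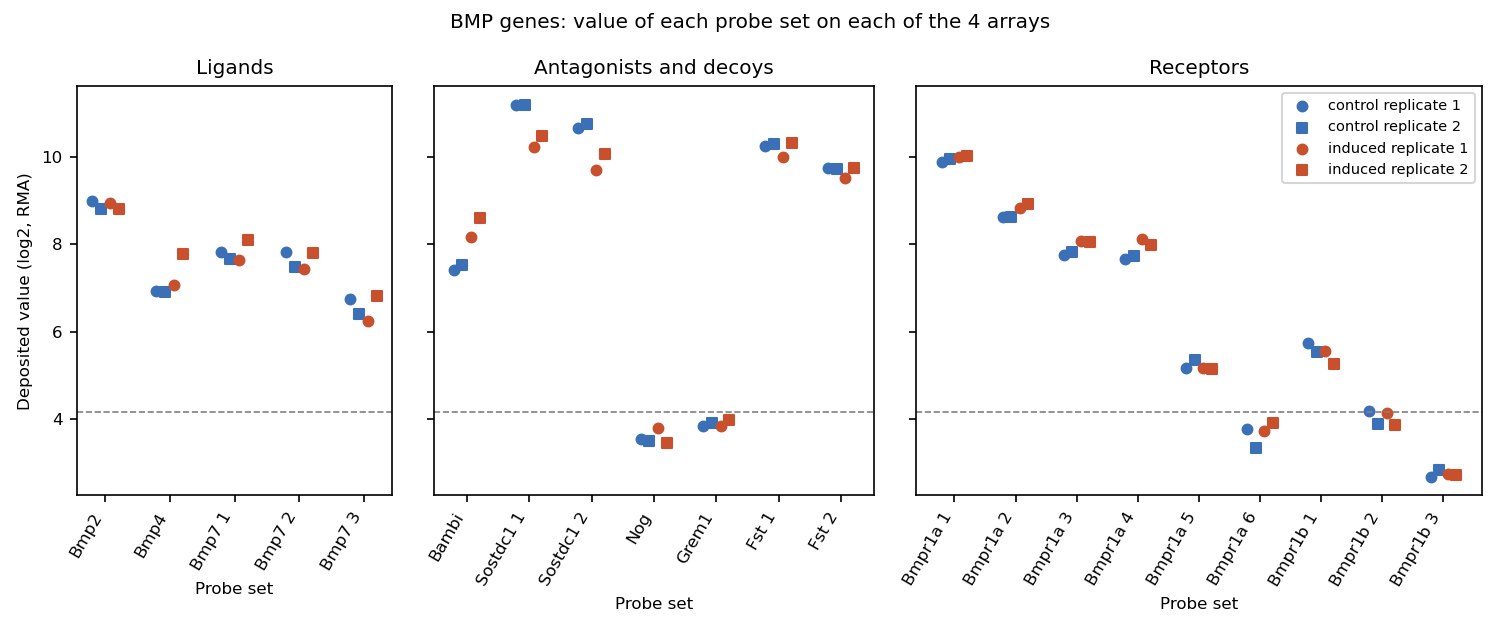
Deposited log2 value (vertical axis) of each of the 21 member probe sets on each of the 4 arrays, by role, with blue for control, orange for induced, circles for replicate 1 and squares for replicate 2; the dashed line is the filter level of 4.17 and a number after a symbol ranks that gene's probe sets by mean level. Both induced arrays lie below both controls in the 2 probe sets of Sostdc1 and above them for Bambi and Bmp4, and Nog and Grem1 lie under the line.

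Sostdc1, also called ectodin or Wise, binds BMP ligands and also restrains Wnt signalling through its co-receptors. Its brighter probe set (1449340_at) had log2 values of 11.19 and 11.18 in the controls against 10.23 and 10.48 in induced replicates 1 and 2. The controls lay within 0.01 of their mean (SD 0.01, n = 2), and both induced arrays were lower than either. The difference of the means was -0.83 ± 0.12 (SE), with an interval at the 95% level of -1.12 to -0.54. limma gave an unadjusted p of 0.00045 and an adjusted p of 0.173 for it.

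The other Sostdc1 probe set (1460250_at) had values of 10.65 and 10.74 in the controls against 9.70 and 10.07 in the induced arrays. It was thus lower in both induced arrays as well, by 0.81 on average (1.76-fold, SE 0.14), with an adjusted p of 0.205 in limma. Both probe sets are annotated to the same gene, so they are a pair of readings of 1 gene and not separate evidence. Only 51 and 57 of the 27022 kept probe sets (0.189% and 0.211%) were lower by as much or more. With the trended and robust prior the adjusted p-values of the 2 probe sets were 0.0186 and 0.0394, so their call depends on how limma's prior is set. The difference of the brighter probe set ran from -0.95 to -0.71 when each array was left out in turn, and it was -0.71 without induced replicate 1.

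Bambi encodes a membrane protein that resembles a type I receptor but lacks the kinase domain, and its transcription is known to be raised by BMP signalling. Its single probe set (1423753_at) had log2 values of 7.40 and 7.52 in the controls against 8.17 and 8.60 in the induced arrays. Both induced arrays were higher than both controls, with induced replicate 2 the highest. The difference was 0.92 ± 0.16 (SE), with an interval at the 95% level of 0.52 to 1.32, an unadjusted p of 0.00138 and an adjusted p of 0.205 in limma. It was matched or exceeded in 79 of the 27022 kept probe sets (0.292%). With the trended and robust prior the adjusted p of 0.0518 stayed above the threshold. Leaving out 1 array in turn gave differences from 0.71 (without induced replicate 2) to 1.14 (without induced replicate 1).

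Fst encodes follistatin, which binds activins tightly and some BMPs. Its brighter probe set (1434458_at) had values of 10.25 and 10.28 in the controls against 10.002 and 10.32 in the induced arrays, so that 1 induced array was the lowest and the other the highest. The difference was -0.11 ± 0.13 (SE), and its interval at the 95% level of -0.43 to 0.22 held both directions. The other probe set (1421365_at) read 9.74, 9.73, 9.51 and 9.74 in the same order of arrays, with the same low reading in induced replicate 1. Without that array the difference of the brighter probe set was 0.05.

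Nog encodes noggin, a secreted BMP antagonist of the follicle mesenchyme, and Grem1 encodes gremlin, another secreted BMP antagonist. The Nog probe set (1422300_at) read 3.55 and 3.49 in the controls against 3.79 and 3.46 in the induced arrays. The Grem1 probe set (1425357_a_at) read 3.84 and 3.91 against 3.85 and 3.98. All 8 values lay under the filter level on all 4 arrays, so no fold is given for either gene. Differences of these dim readings (0.10 for Nog and 0.04 for Grem1) are printed and plotted only for completeness, lay outside the reported test and are no measure of the transcripts.

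Among the ligands, Bmp4, made by the follicle mesenchyme and by hair matrix cells, had log2 values of 6.92 on both control arrays. The induced arrays read 7.08 and 7.77 (probe set 1422912_at), both above the controls but apart from each other, with an SD of 0.49 (n = 2) against 0.0029 in the controls. The difference was 0.50 ± 0.22 (SE), with an interval at the 95% level of -0.05 to 1.06 and an adjusted p of 0.535 in limma. Induced replicate 2 decided its size. The difference was 0.16 without that array and 0.85 without induced replicate 1.

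Bmp2, a ligand of the hair matrix and the differentiating epidermis, read 8.98 and 8.81 in the controls against 8.95 and 8.81 in the induced arrays (probe set 1423635_at). Both induced readings lay between or beside the control readings. The difference was -0.01 ± 0.11 (SE), and its interval at the 95% level ran from -0.29 to 0.26, so a larger shift than that in either direction lay outside the interval.

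Bmp7, a ligand of epithelium and mesenchyme alike, had 3 kept probe sets. The brightest by mean (1418910_at) read 7.82 and 7.67 in the controls against 7.63 and 8.09 in the induced arrays, a difference of 0.12 ± 0.17 (SE). The next (1435479_at) read 7.83, 7.49, 7.43 and 7.80, and the dimmest (1432410_a_at) 6.75, 6.41, 6.24 and 6.81, with differences of -0.04 and -0.05. In all 3 probe sets induced replicate 1 was the lowest array, and the groups overlapped. Without induced replicate 1 the difference of the brightest probe set was 0.35, and without induced replicate 2 it was -0.11.

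**Figure D2:**
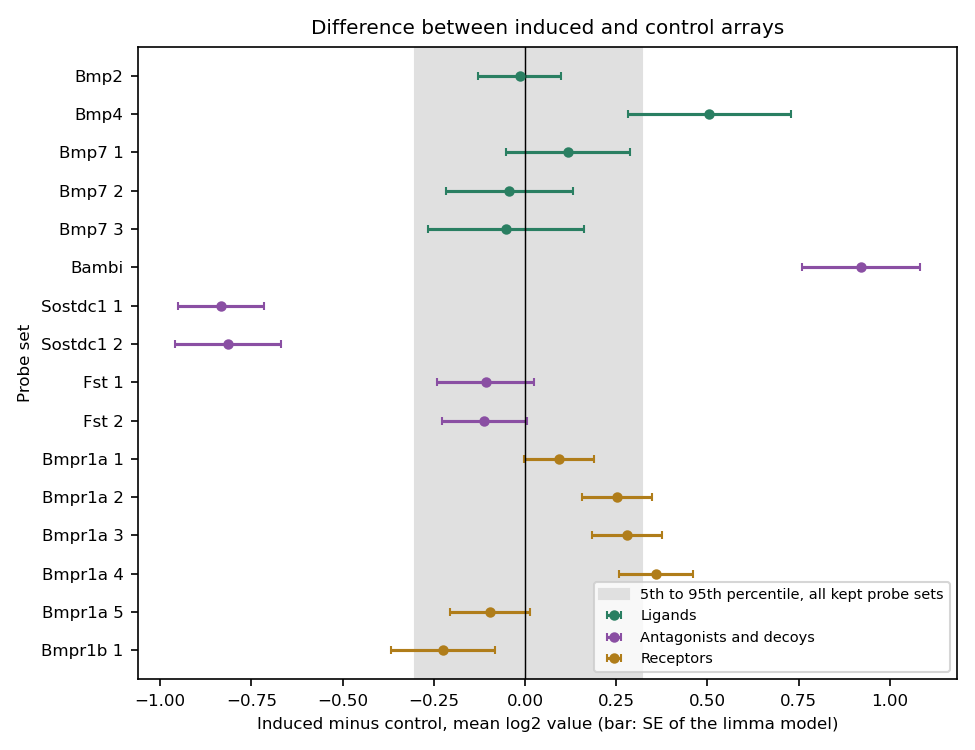
Induced minus control difference in mean log2 value (horizontal axis) of the 16 kept member probe sets, coloured by role, with bars for the standard error of the limma model and grey for the range between the 5th and 95th percentiles of all 27022 kept probe sets (-0.30 to 0.32). Bambi, Bmp4, both probe sets of Sostdc1 and 1 probe set of Bmpr1a lie outside the grey range, and the rest lie inside it.

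Bmpr1a, the main type I BMP receptor of the epidermis and follicle, had 6 probe sets, 5 of them kept. The brightest (1425492_at) read 9.88 and 9.94 in the controls against 9.99 and 10.02 in the induced arrays. The induced arrays were higher, but by only 0.09 ± 0.10 (SE), which is less than its standard error.

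Larger differences came from 3 dimmer Bmpr1a probe sets. The probe set 1425494_s_at read 8.62 and 8.62 against 8.83 and 8.92, a difference of 0.25 ± 0.10 (SE). The probe set 1425491_at read 7.74 and 7.83 against 8.08 and 8.05 (0.28 ± 0.10), and 1425493_at read 7.66 and 7.73 against 8.11 and 7.99 (0.36 ± 0.10, 1.28-fold). In each of the 3 the groups did not overlap, with adjusted p-values of 0.468, 0.431 and 0.356 in limma. The fifth kept probe set (1451729_at) read 5.16 and 5.36 against 5.17 and 5.15, a difference of -0.10 ± 0.11 (SE) in the other direction. These 5 probe sets are annotated to the same gene, so their disagreement in size and sign is between readings of 1 gene. The sixth (1445413_at) was below the filter.

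Bmpr1b encodes another type I receptor, better known from cartilage and ovary. Its kept probe set (1437312_at) read 5.74 and 5.53 in the controls against 5.56 and 5.25 in the induced arrays. The groups overlapped narrowly, with a difference of -0.23 ± 0.14 (SE) and an interval at the 95% level of -0.58 to 0.13. The difference was -0.38 without induced replicate 1 and -0.07 without induced replicate 2. The other 2 probe sets of Bmpr1b had means below the filter level.

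By role, 1 of the 5 kept ligand probe sets was higher on both induced arrays than on either control and none was lower. Of the 5 kept antagonist and decoy probe sets, 1 was higher and 2, both of Sostdc1, were lower. Of the 6 kept receptor probe sets 4, all of Bmpr1a, were higher and none was lower. This makes 8 of the 16 kept member probe sets (50%) without overlap between groups, against 39.1% of all kept probe sets, with 6 higher (20.9% of all) and 2 lower (18.2% of all). At a difference of at least 1.5-fold as well there were 3, namely Bambi and the 2 readings of Sostdc1, against 1.69% of all kept probe sets (1.02% higher and 0.666% lower). At an unadjusted p under 0.05 in limma there were 6, against 10.1% of all, with 4 higher (5.41% of all) and 2 lower (4.69% of all). The 4 higher were Bambi and 3 readings of Bmpr1a, and the 2 lower were those of Sostdc1. All but Bambi are thus repeated readings of Bmpr1a or of Sostdc1.

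Medians by role were small beside the differences of single genes. With each gene taken at its brightest kept probe set, the median difference was 0.12 over the 3 ligands and -0.07 over the 2 receptors, beside 0.00 over all kept probe sets. Averaging the 3 probe sets of Bmp7 in place of its brightest brought the ligand median to 0.0077. Over the 5 antagonists and decoys, with Nog and Grem1 at their dim readings, the median was 0.04, which is the reading of Grem1, and over the 3 above the filter it was -0.11. The latter median lay between a gene at 0.92 and one at -0.83, so it describes neither, and the receptor median rests on the Bmpr1a probe set with the smallest of that gene's 4 positive differences. These medians carry no test, since the members were chosen with results known.

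**Figure D3:**
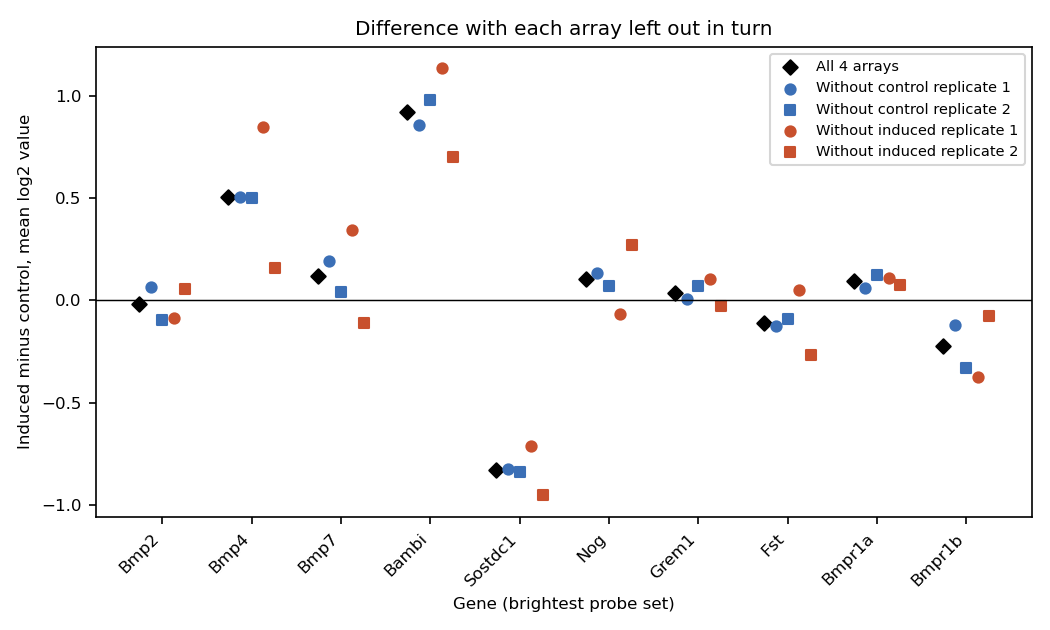
Induced minus control difference in mean log2 value (vertical axis) of the brightest probe set of each of the 10 genes, with all 4 arrays (black diamonds) and with each array left out in turn (blue for a control, orange for an induced array; circles for replicate 1, squares for replicate 2). Bambi stays between 0.71 and 1.14 and Sostdc1 between -0.95 and -0.71, while Bmp4 moves between 0.16 and 0.85 and Bmp2, Bmp7, Nog, Grem1 and Fst change sign.

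Several cell type markers differed between the arrays alongside these genes. Of 10 matched markers of the hair matrix, inner root sheath and shaft, 9 had the higher mean on the induced side and 7 were higher without overlap between groups (20.9% of all kept probe sets were), with a median difference of 0.73. Their summed linear values (2 to the power of each log2 value, at the brightest probe set) were 15926 and 19440 in the controls against 26154 and 31264 in the induced arrays, the same order of arrays as for Bambi. Of the 5 markers of the outer root sheath and follicle bud, 1 (Sox9) was higher and 1 (Krt15) lower without overlap, and the median was -0.02. Their summed values, carried by Krt15 and Krt17, were 12823 and 12864 in the controls and 10810 and 11864 in induced replicates 1 and 2. Of the 6 basal keratinocyte markers 5 were lower on both induced arrays than on either control (18.2% of all kept probe sets were), with a median of -0.15, and of the 6 suprabasal markers also 5, with a median of -0.06. In such bulk samples fewer cells of a type and less RNA per cell cannot be told apart, and the part of these shifts in the Bambi and Sostdc1 differences was not tested.

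Induced replicate 2, the array with the highest reading of Bmp4 and of the brightest Bmp7 probe set, was also highest for many markers. These were 9 of 10 markers of the hair matrix, inner root sheath and shaft and 4 of 5 of the outer root sheath and bud. They also included 7 of 8 melanocyte and 4 of 8 dermal papilla markers. Of the 8 dermal fibroblast markers it was highest for 2, against 3 for each control. It was highest for 1 of 6 basal and 0 of 6 suprabasal keratinocyte markers. These counts are given without the share of all kept probe sets that were highest on this array. The summed linear value of the 8 dermal papilla markers was 131 and 135 in the controls, 114 in induced replicate 1 and 189 in induced replicate 2. Its gap between the induced arrays came mainly from Wif1 (log2 3.14 and 5.53) and Vcan (4.21 and 5.43). The sum over the 8 dermal fibroblast markers was 434 and 419 in the controls against 308 and 517 in the induced arrays. Dcn carried most of that sum, at log2 values of 8.23 and 8.04 against 7.57 and 8.42. The sum over the 8 melanocyte markers was 4243 and 4413 against 3873 and 5823. The papilla markers Sox2, Corin, Hhip, Wif1 and Crabp1 and the fibroblast markers Col1a1, Lum, Pdgfra and Dpt were below the filter by their means. The part of these cells in the Bmp4 and Bmp7 values was not tested.

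The rest of the pathway was read from 4 further lists, to be set beside the 20.9% of all kept probe sets that were higher and the 18.2% that were lower without overlap. Of 11 other BMP and GDF ligand genes 8 were matched and 4 kept, and none of the 4 separated the groups. They were led by Bmp8a at 4.37 and 4.53 against 4.51 and 4.74, with Gdf2 differing by 0.03 and Bmp8b by 0.03.

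Of 18 other antagonists and extracellular modulators 13 were kept, 2 of them higher and 2 lower without overlap, with a median difference of 0.05. Twsg1, a modulator that binds BMPs together with chordin, read 8.90 and 8.85 in the controls against 8.57 and 8.61 in the induced arrays (-0.29 ± 0.10 SE, adjusted p = 0.413 in limma). Of the gene's other 3 kept probe sets 1, dim at a control mean of 4.34, pointed the other way (0.18 ± 0.10). Fstl3, a relative of follistatin, read 7.10 and 7.11 against 7.29 and 7.34 (0.21 ± 0.09). Bmper, a chordin-like modulator, overlapped between groups, at 4.32 and 4.76 against 5.21 and 4.69.

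Of 9 other receptors and co-receptors 7 were kept, of which 4 were higher without overlap and none lower, with a median of 0.11. The type I receptor Acvr1 read 7.42 and 7.27 in the controls against 7.51 and 7.72 in the induced arrays (0.27 ± 0.12 SE), with its other kept probe set at 0.29. Acvr2a and Acvr2b, type II receptors that BMPs share with activins, differed by 0.13 ± 0.10 and 0.11 ± 0.10, and a dimmer probe set of Acvr2b by 0.42 ± 0.12. Each of these 3 genes was thus higher in all of its kept probe sets, as Bmpr1a was in 4 of 5, and none passed the test. Rgmb, also higher without overlap at its brightest probe set (0.11), had 5 other kept probe sets, 4 of them lower on average. Bmpr2 differed by 0.01 at its brightest probe set, and its 2 other kept probe sets were lower on average.

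In the list of 10 Smad and Id genes 9 were kept, 5 of them higher without overlap and none lower. The inhibitory Smads, which are induced by the pathway they restrain, had the largest test statistics, with Smad7 at 7.40 and 7.32 against 7.71 and 7.70 and Smad6 at 5.12 and 5.34 against 5.52 and 6.28. Smad1, a receptor-activated Smad, differed by 0.18 ± 0.09 (SE). Id1, a direct target of BMP signalling, differed by 0.00, Id2 by -0.15, Id3 by 0.17 and Id4 by 0.17. Of the Id genes, which were named after their values were seen, only Id4 was higher without overlap. Over these 4 lists 0 of the 33 kept genes passed the limma test over all probe sets, and 3 had an unadjusted p under 0.05 (Twsg1, Smad6 and Smad7), beside 10.1% of all kept probe sets.

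**Figure D4:**
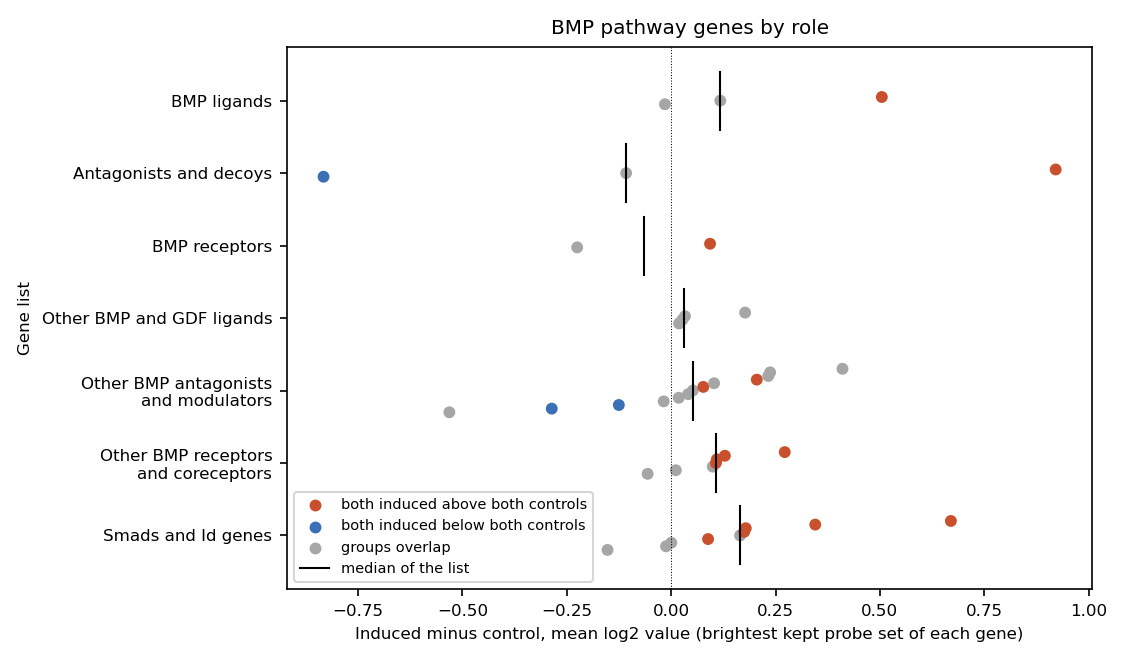
Induced minus control difference in mean log2 value (horizontal axis) of each kept gene at its brightest kept probe set, by role in the BMP pathway, with orange where both induced arrays lay above both controls, blue where both lay below, grey where the groups overlapped and a black bar at the median of each list. Bambi (0.92) and Sostdc1 (-0.83) are at the outer ends, and in the receptor and Smad lists no kept gene without overlap is lower.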

How the data were processed

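The deposited values are log2 expression values per probe set, made by the authors with RMA (background correction, quantile normalization between arrays, summary per probe set), which the submitters' processing notes name without a version. The sources used here name no chip definition. Quantile normalization would hide a change in total RNA per cell. The table held 45101 probe sets, of which 64 controls were left out. Gene names came from the platform annotation, updated through the RefSeq gene table of GRCm38, with no coordinates taken from that table.

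Induced and control arrays were compared by linear models with no block, fitted by lmFit and moderated by eBayes (limma 3.58.1, R 4.3.3, two-sided tests), on the 27022 probe sets whose mean reached the 40th percentile (4.17), with Benjamini-Hochberg adjustment over all of them. Only 2 residual degrees of freedom were available, so standard errors lean on a prior with 3.82 degrees of freedom and a standard deviation of 0.115. The number of arrays limits the precision of all values. A gene stood at its brightest kept probe set. Named pathway genes are the 3 of each list with the largest absolute statistic. Rgmb, Bmpr2 and the Id genes were added to them after their values were seen. The procedure was tested on simulated data whose changes were larger than any member difference here. That test does not show how often differences of the size seen here would be called. The members, lists and rules were chosen with earlier results of these data known. The alternatives were no filter or one at the 60th percentile, array medians set equal, quantile normalization applied again, a trended and robust prior, a block for the replicate number, averaging the probe sets of each gene and leaving out each array.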

Additional observations from a re-analysis of the deposited data

How the results depend on the processing

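Of 79 values of the 8 tested genes under alternatives with a test, 74 kept their direction and their side of the threshold, and 1 (Sostdc1 with the trended and robust prior, -0.83) passed it. Of 28 values not tested in both fits (Nog, Grem1 and averaged probe sets), 26 kept their direction. The other 6 values changed sign, all with 1 array left out, when the differences ran from -0.097 to 0.067 for Bmp2 (0.067 without control replicate 1, 0.056 without induced replicate 2), -0.11 to 0.35 for Bmp7, -0.064 to 0.27 for Nog, -0.029 to 0.11 for Grem1 and -0.27 to 0.051 for Fst. The count of probe sets called, 0 in the reported fit, was 126 with the trended and robust prior and ran from 0 to 6 with 1 array left out, 6 without induced replicate 2. With 1 array left out the ligand median ran from 0.041 to 0.35, the median of all 5 antagonists and decoys (0.04, with Nog and Grem1 at readings below the filter) from -0.029 to 0.070 and the receptor median from -0.13 to 0.0013. With the probe sets of a gene averaged the ligand median was 0.0077. A filter at the 60th percentile gave a receptor median of 0.093, Bmpr1b being dropped, and an antagonist median of -0.11, the value over the 3 genes that pass either filter, since Nog and Grem1 were then not counted. The count of member probe sets without overlap, 8 of 16, was 14 without induced replicate 1 and 13 without induced replicate 2, when 69.0% and 68.6% of all kept probe sets did not overlap, 1 array then standing for a group; this was added after the data were seen.

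With the replicate number as a block 0 probe sets were called, and the adjusted p was 0.395 in limma for both Sostdc1 and Bambi. The labels do not say that a number marks a litter, and the correlation of the deviations of same-numbered arrays was -0.10. The crossed pairing, also added after the data were seen, called 0 probe sets. The sources used here give no scan dates and do not say which samples shared a litter, so no batch was examined.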
